A study of Mus musculus with 18 samples.

Results

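The interleukin 6 family is described here by 10 genes of the count table, taken by their symbols from 55486 genes: the ligands Il6, Lif, Il11 and Clcf1, the receptor subunits Il6st, Osmr, Lifr and Il6ra, the transcription factor Stat3 and its feedback inhibitor Socs3. All 10 passed the filter on low counts, which kept 14273 genes. The members were followed across 4 groups of cultured mouse mammary normal fibroblasts (NFs) and by the tumor line that gave the conditioned medium (CM).

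Ligands of this family bind a ligand-specific receptor and then gp130, the shared signalling subunit encoded by Il6st. Janus kinases bound to gp130 phosphorylate STAT3, which enters the nucleus and switches on target genes. One of these targets is Socs3, whose protein binds gp130 and the kinases and stops the signal. Interleukin 6 and LIF are best known in tumor stroma as signals made by and acting on inflammatory fibroblasts, and interleukin 11 is known as a product of fibroblasts stimulated by TGF-beta.

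The study cultured fibroblasts that had been sorted from FVB/n mammary glands by the presence or absence of CD26, a surface peptidase encoded by Dpp4, and asked how each kind responds to factors released by tumor cells. The 4 groups were CD26- NFs in control conditioned medium (replicates 1 to 3), CD26- NFs in tumor CM (replicates 4 to 9), CD26+ NFs in control conditioned medium (replicates 10 to 12) and CD26+ NFs in tumor CM (replicates 13 to 18), all of FVB/n genotype and kept in the medium for 7 days. Tumor CM came from 6 lines grown from mouse tumors of a model of invasive lobular carcinoma, in which Cre driven by the Wap promoter deletes Cdh1, among other changes, in mammary epithelium. Each line gave its CM to 1 culture of CD26- NFs and 1 culture of CD26+ NFs, so that the spread within a CM group includes the differences between lines. Glands of several female mice of FVB/n background were pooled per sort and the cells were expanded on collagen before use. In the paper's sort, cells with EpCAM, CD49f, CD45 or CD31 were not taken as fibroblasts. The labels do not say that the libraries of a group came from separate sorts, so p-values measure the spread between these libraries, which may be technical in part.

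Total counts per library ranged from 9725723 to 14585349, and the members had between 63 and 14932 counts in each library, with the lowest for Il6ra and the highest for Il11. Fibroblast markers (8 of 8 tested) summed to 14880 to 16620 CPM (read counts scaled to library size) in CD26- controls and 8046 to 19770 CPM in CD26- CM libraries, against 60120 to 76900 CPM and 27280 to 50260 CPM in the CD26+ groups. Epithelial markers (10 of 10 tested, none at 0, among them Krt8, Krt18 and Cdh1) summed to 4301 to 4765 CPM in CD26- controls and 2740 to 4474 CPM in CD26- CM libraries, against 697 to 1269 CPM and 639.9 to 1539 CPM in the CD26+ groups. In both media 9 of the 10 epithelial markers were lower in CD26+ NFs. Immune markers (2 of 7 tested) summed to at most 28.9 CPM, with 1 to 5 of them at 0, and endothelial markers (4 of 5 tested) to at most 8.602 CPM. Dpp4 itself was at or near 0 in the controls of both cell types (at most 0.1706 CPM), so its RNA did not separate the sorted groups there. In CM it had 0.0775 to 0.8796 CPM in CD26- and 0.714 to 7.793 CPM in CD26+ libraries, and was called higher in CD26+ than CD26- NFs in CM and higher with CM in CD26+ NFs. Replicate 18 (CD26+ NFs, line 13-MCB-138) stood apart from replicates 13, 14 and 17 of its group, with a chi-square per degree of freedom of 40.56 to 59.38. Against replicates 15 and 16 it had 22.21 and 23.44, within the 4.633 to 27.97 of the other 5 libraries among themselves.

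The promoters of the members were read from RefSeq (GRCm38.p6), which held 11 promoters of 300 bases for 9 of the 10 members, with 2 each for Il11 and Lifr and none for Clcf1. Letters of known binding motifs were searched on both strands. TTCNNNGAA, the letters of a STAT element, was found in 1 member promoter, that of Socs3, and in 8.3% of all 32851 mouse promoters of that length. TGANTCA, the letters of an AP-1 element, was found in 4 member promoters (Il6, Lif, the second of Il11, and Osmr just after its start) and in 7.81% of all promoters. TGACGTCA, a cyclic AMP response element, was in none of them and in 1.79% of all. Letters for NF-kB (GGANTTTCC, in 1.25% of all promoters) and for C/EBP (TTGNGCAA, in 2.94%), added after the sequences had been seen, were found in the promoter of Il6 only. Matching letters are a description and do not show binding. The stretches below are shown because Il6, Lif and Il11 are ligands with matched letters before their start, all 3 called with CM in CD26+ NFs, and Socs3 is the feedback gene. They run 5′ to 3′ on the strand of the gene, end before its start site, and carry the matched letters in capitals.
Il6 promoter, the 250 bases before the start, chr5:30012864-30013113, plus strand (AP-1, C/EBP and NF-kB in this order): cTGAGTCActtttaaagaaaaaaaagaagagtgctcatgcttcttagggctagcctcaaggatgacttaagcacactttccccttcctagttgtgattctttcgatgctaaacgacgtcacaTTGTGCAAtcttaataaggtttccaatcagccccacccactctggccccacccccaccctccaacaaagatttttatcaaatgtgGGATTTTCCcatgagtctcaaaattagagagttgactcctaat
Lif promoter, chr11:4257318-4257371, plus strand (AP-1): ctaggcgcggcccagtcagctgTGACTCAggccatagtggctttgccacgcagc
Il11 second promoter, chr7:4778208-4778264, minus strand (AP-1): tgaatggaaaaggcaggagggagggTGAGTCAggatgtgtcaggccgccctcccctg
Socs3 promoter, chr11:117969487-117969545, minus strand (STAT): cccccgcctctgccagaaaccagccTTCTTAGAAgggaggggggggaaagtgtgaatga

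Levels were first compared between genes as TPM, which divides counts by exon length as well as by depth. Neighbours in the order are said not to differ beyond their spread where the gap between their means is smaller than the larger SD. In CD26- controls Il11 was the most abundant member at 2283 ± 161 TPM (SD, n = 3), followed by Lif at 247 ± 9.89, Stat3 at 117 ± 2.73, Clcf1 at 97.1 ± 6.59, Il6st at 95.9 ± 7.10, Osmr at 48.0 ± 1.85, Il6 at 45.6 ± 4.85, Socs3 at 30.2 ± 3.89, Lifr at 8.11 ± 0.941 and Il6ra at 4.07 ± 0.225 TPM. Clcf1 and Il6st, and likewise Osmr and Il6, did not differ beyond their spread. In CD26+ controls Il11 again led at 1076 ± 119 TPM, followed by Il6st at 292 ± 24.1, Stat3 at 181 ± 4.09, Osmr at 104 ± 3.80, Socs3 at 88.1 ± 3.51, Clcf1 at 63.3 ± 9.59, Lif at 51.4 ± 16.5, Lifr at 23.6 ± 1.17, Il6 at 23.3 ± 3.06 and Il6ra at 2.84 ± 0.360 TPM. Here Clcf1 and Lif, and Lifr and Il6, did not differ beyond their spread.

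In tumor CM the order of the ligands moved. In CD26- NFs (n = 6) Il11 stood at 990 ± 355 TPM, Lif at 314 ± 34.3, Il6 at 137 ± 49.3, Il6st at 103 ± 11.6, Stat3 at 103 ± 5.72, Clcf1 at 72.8 ± 10.1, Osmr at 59.7 ± 8.08, Socs3 at 51.8 ± 6.82, Lifr at 7.94 ± 1.12 and Il6ra at 5.24 ± 0.370 TPM. The pairs Il6 and Il6st, Il6st and Stat3, and Osmr and Socs3 did not differ beyond their spread. In CD26+ NFs (n = 6) Il11 stood at 435 ± 217 TPM, Il6st at 249 ± 16.9, Il6 at 181 ± 52.6, Stat3 at 149 ± 4.00, Lif at 145 ± 22.8, Osmr at 127 ± 19.0, Socs3 at 104 ± 7.88, Clcf1 at 47.3 ± 7.31, Lifr at 18.5 ± 1.92 and Il6ra at 6.44 ± 1.04 TPM. Here Il11 and Il6st, Il6 and Stat3, Stat3 and Lif, and Lif and Osmr did not differ beyond their spread. Il6ra, the ligand-binding subunit for interleukin 6, was the lowest member in all 4 groups.

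Per exon length, Il11 exceeded Il6 by 44.1 to 59.8 times in the 3 CD26- controls and by 42.9 to 49.8 times in the 3 CD26+ controls. In CM this ratio was 5.18 to 8.55 in the 6 CD26- libraries and 0.966 to 6.55 in the 6 CD26+ libraries. The CM libraries lay below their controls in each cell type without overlap. In CD26+ NFs the ratio was 0.966 to 2.64 in 5 libraries and 6.55 in replicate 18.

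The first question was which members changed when NFs were kept in tumor CM. In CD26- NFs, 2 members rose (Il6 and Socs3), 3 fell (Il11, Clcf1 and Stat3) and 5 did not pass an adjusted p of 0.05, where 7.88% of all tested genes rose and 7.3% fell. In CD26+ NFs, 3 rose (Il6, Lif and Il6ra), 4 fell (Il11, Clcf1, Lifr and Stat3) and 3 did not pass, where 15.2% of all tested genes rose and 13.4% fell. With the log2 limit of 2 that the study's methods add, no member was called in CD26- NFs and 1, Il6, in CD26+ NFs, against 0.904% and 2.01% of all tested genes. In CD26- NFs the members called were 2 without any 1 of replicates 1, 2, 3, 4, 5 and 8, 3 without replicate 6, and 7 without replicate 18. In CD26+ NFs they were 5 without replicate 10, 6 without replicate 11, 14 or 17, and 9 without replicate 4 or 18 or with DESeq2. Markers of cell types also moved with CM. Of 4 pericyte markers 2 were lower in CD26- NFs and 1 was higher in CD26+ NFs, 1 of 4 endothelial markers was higher in each, and of 8 fibroblast markers 4 went up and 1 down in CD26- NFs and 3 went up and 3 down in CD26+ NFs. The part of these markers in the results was not tested. The median log2 difference of the members was 0.23 in CD26- NFs and 0.03 in CD26+ NFs, against 0.01 and 0.00 over all tested genes. CM and control libraries did not overlap for 5 members in CD26- and 6 in CD26+ NFs, against 20.3% and 25.3% of all tested genes. Adjusted p-values are those of edgeR's quasi-likelihood test over all tested genes, and log2 differences carry their SE.

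Il6 (ENSMUSG00000025746, chromosome 5, 30013114 to 30019981 in GRCm38), the founding cytokine of the family, had 27.85, 23.03 and 26.7 CPM in the CD26- controls. In CD26- CM libraries it ranged from 33.35 over a median of 79.96 to 113.8 CPM. All 6 CM libraries lay above all controls, and the lowest of them was close to the controls. The rise was 3.04-fold, with a log2 difference of 1.60 ± 0.32 and an adjusted p of 0.0032. In the CD26+ controls Il6 had 15.52, 12.43 and 13.93 CPM, and in CM from 68.54 over a median of 102.7 to 164.2 CPM. Every CD26+ CM library was far above the controls, and the rise was 7.93-fold (log2 difference 2.99 ± 0.35, adjusted p = 9.17e-06).

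Lif (ENSMUSG00000034394, chromosome 11, 4257557 to 4272514), which signals through the LIF receptor and gp130, differed strongly between the cell types before CM was added. It had 262.5, 251.5 and 240.6 CPM in CD26- controls and from 257.4 over 329.8 to 362.1 CPM in their CM libraries, which overlapped the controls. The log2 difference of 0.36 ± 0.16 did not pass (adjusted p = 0.133, and 0.0215 with only the compared groups in the fit). In CD26+ NFs Lif had 70.25, 37.21 and 57.51 CPM in control medium and from 110.5 over 164 to 186.5 CPM in CM, with no overlap. It rose 2.88-fold there (log2 difference 1.52 ± 0.17, adjusted p = 6.81e-06) and still lay below every CD26- library.

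Il11 (ENSMUSG00000004371, chromosome 7, 4772373 to 4782859, minus strand) went the opposite way. It had 1145, 1181 and 1009 CPM in CD26- controls and from 185.8 over 518.6 to 671.9 CPM in CM. CD26+ NFs had 570.2, 492.9 and 594.4 CPM in control medium and from 76.24 over 227.7 to 384.9 CPM in CM. In both cell types all CM libraries lay below all controls, and their spread was wide. Il11 was 2.28-fold lower in CD26- NFs (log2 difference -1.19 ± 0.37, adjusted p = 0.0369) and 2.44-fold lower in CD26+ NFs (-1.29 ± 0.37, adjusted p = 0.0143). The first of these calls was lost without any 1 of replicates 1, 2, 3, 4, 5, 6 and 8 (adjusted p of 0.0548 to 0.102), and passed with line as a block (-1.30, adjusted p = 7.58e-07).

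Clcf1 (ENSMUSG00000040663, chromosome 19, 4214238 to 4223490), a ligand of the CNTF receptor complex, fell by less. It had 89.05, 91.7 and 78.82 CPM in CD26- controls and from 56.11 over 62.97 to 78.92 CPM in CM. CD26+ NFs had 67.58, 52.09 and 58.47 CPM in control medium and from 40.69 over 42.4 to 57.83 CPM in CM. In each cell type 1 CM library reached the range of the controls. Both decreases were 1.32-fold (log2 difference -0.40 ± 0.12 in each, adjusted p = 0.0297 in CD26- and 0.0201 in CD26+ NFs). The CD26- call passed with line as a block (adjusted p = 0.00405) and was lost without any 1 of replicates 1, 2, 3, 4, 5, 6 and 8 (adjusted p of 0.0538 to 0.112), and the CD26+ call without control replicate 10 (adjusted p = 0.127).

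**Figure D1:**
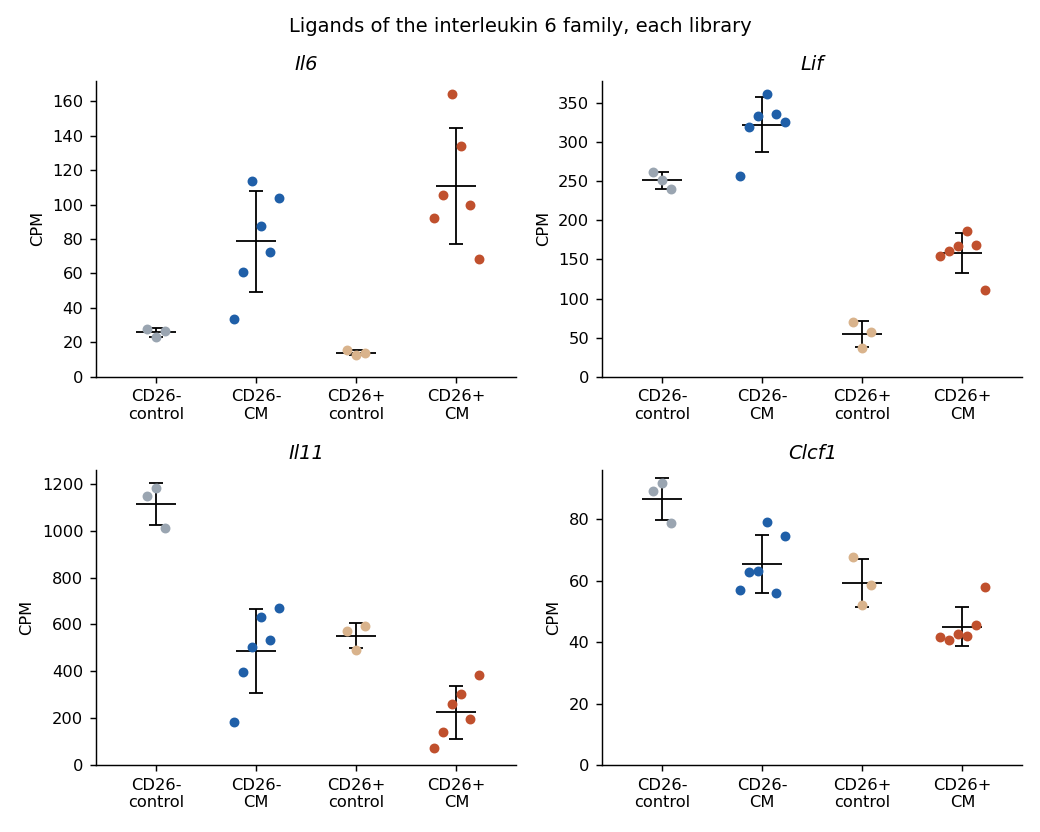
CPM on a linear axis from 0 for Il6, Lif, Il11 and Clcf1 in every library of the 4 groups (3, 6, 3 and 6 libraries), with the mean (bar) and SD (whiskers) of each group. Il6 rises and Il11 falls with CM in both cell types, and Lif rises in CD26+ NFs from a mean of 55 to 158 CPM.

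Among the receptor subunits Il6ra (ENSMUSG00000027947, chromosome 3, 89864059 to 89913196, minus strand) moved most with CM. It had 7.928, 8.104 and 8.652 CPM in CD26- controls and from 9.61 over 10.72 to 11.69 CPM in CM, with no overlap. The log2 difference of 0.38 ± 0.13 did not pass the test (adjusted p = 0.0619) and passed with line as a block (adjusted p = 0.033) and without replicate 18 (0.0135). It also passed with only the compared groups in the fit (0.0196). CD26+ NFs had 5.093, 6.437 and 6.67 CPM in control medium and from 9.817 over 14.98 to 15.67 CPM in CM. There it rose 2.3-fold (log2 difference 1.20 ± 0.14, adjusted p = 7.03e-06). An antisense gene, Gm42809, overlaps Il6ra and had 19 counts in all libraries together.

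Osmr (ENSMUSG00000022146, chromosome 15, 6813577 to 6874969, minus strand) encodes the oncostatin M receptor, which pairs with gp130. It had 130.9, 137.1 and 139.9 CPM in CD26- controls and from 136.3 over 171.3 to 206.2 CPM in CM, and 299.1, 331.2 and 303.8 CPM in CD26+ controls and from 319.1 over 377.8 to 486.4 CPM in CM. The groups overlapped in each cell type. Log2 differences were 0.33 ± 0.12 in CD26- NFs (adjusted p = 0.0732) and 0.31 ± 0.12 in CD26+ NFs (adjusted p = 0.0558). With line as a block, which removes the spread between lines, both passed (adjusted p = 0.0026 and 0.00198). The first also passed without replicate 7, 13 or 18 (adjusted p of 0.0234 to 0.0469), and the second without replicate 4, 7, 16 or 18 (0.0196 to 0.0465). With DESeq2 the second passed too (adjusted p = 0.0449).

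Il6st (ENSMUSG00000021756, chromosome 13, 112464070 to 112510086) had 229.5, 253.7 and 263.4 CPM in CD26- controls and from 225.1 over 274.6 to 309 CPM in CM. CD26+ NFs had 752.2, 896.5 and 759 CPM in control medium and from 636.3 over 682.9 to 790.8 CPM in CM. The CM and control libraries overlapped in both. The log2 differences were 0.12 ± 0.10 (adjusted p = 0.411) and -0.21 ± 0.09 (adjusted p = 0.102, 0.0321 with line as a block and 0.044 without replicate 13). The second also passed with upper-quartile scaling (adjusted p = 0.049).

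Lifr (ENSMUSG00000054263, chromosome 15, 7090614 to 7197489), the receptor for LIF, had 18.08, 20.64 and 22.58 CPM in CD26- controls and from 16.34 over 19.63 to 24.73 CPM in CM, a log2 difference of -0.02 ± 0.12 (adjusted p = 0.937, 95% interval from -0.274 to 0.235). CD26+ NFs had 61.93, 66.88 and 59.29 CPM in control medium and from 41.56 over 50.59 to 55.69 CPM in CM, without overlap. It was 1.25-fold lower there (log2 difference -0.33 ± 0.11, adjusted p = 0.0334). This call was lost without control replicate 10 or 11 or CM replicate 14 or 17 (adjusted p of 0.0524 to 0.123).

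Stat3 (ENSMUSG00000004040, chromosome 11, 100885098 to 100939540, minus strand) varied least. It had 259.8, 257.2 and 263 CPM in CD26- controls and from 212.5 over 235.4 to 249.6 CPM in CM, and 413.4, 445.2 and 417.2 CPM in CD26+ controls and from 335.2 over 356.5 to 375.3 CPM in CM. The groups did not overlap in either cell type. The decrease was 1.12-fold in CD26- NFs (log2 difference -0.17 ± 0.05, adjusted p = 0.0353) and 1.19-fold in CD26+ NFs (-0.26 ± 0.05, adjusted p = 0.00139). The CD26- call was lost without any 1 of replicates 1, 2, 3, 4, 5 and 8 (adjusted p of 0.0535 to 0.13), without the filter on low counts (0.0851), and with only the compared groups in the fit (0.0682), and passed with line as a block (0.00643). Stat3 overlaps Stat5a on the opposite strand, and the strand setting of the counting is not given in the sources used here.

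Socs3 (ENSMUSG00000053113, chromosome 11, 117966079 to 117970047, minus strand), the feedback inhibitor, had 23.4, 19.11 and 18.66 CPM in CD26- controls and from 27.91 over 35.59 to 41.42 CPM in CM, without overlap. It rose 1.74-fold (log2 difference 0.80 ± 0.11, adjusted p = 0.000274). CD26+ NFs had 59.99, 67.18 and 61.66 CPM in control medium and from 64.35 over 77.94 to 81.62 CPM in CM, and only replicate 18 lay within the range of the controls. The log2 difference of 0.27 ± 0.10 narrowly missed the threshold (adjusted p = 0.0504). It passed with line as a block (adjusted p = 0.00495) and without replicate 1, 4, 9 or 18 (adjusted p of 0.0167 to 0.0498). It also passed with DESeq2 (0.0393) and with only the compared groups in the fit (0.0358).

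**Figure D2:**
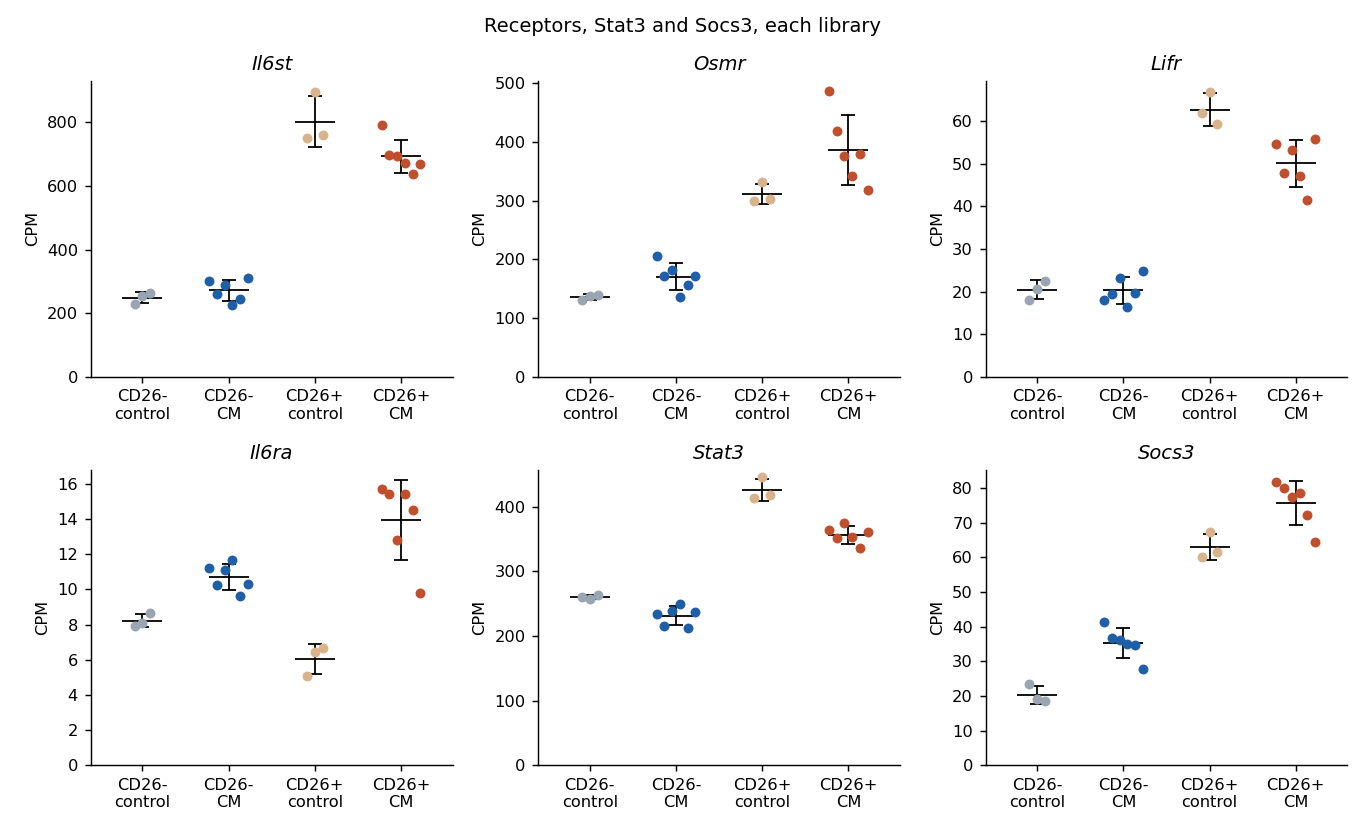
CPM on a linear axis from 0 for the 4 receptor subunits, Stat3 and Socs3 in every library of the 4 groups (3, 6, 3 and 6 libraries), with the mean (bar) and SD (whiskers). Il6st, Osmr, Lifr, Stat3 and Socs3 separate the cell types in both media, while Il6ra rises with CM to 13.95 CPM in CD26+ NFs.

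The second question was how the cell types differ in the same medium. In control medium 5 members were higher in CD26+ than in CD26- NFs (Il6st, Osmr, Lifr, Stat3 and Socs3) and 3 were lower (Lif, Clcf1 and Il6ra), where 25% of all tested genes were higher and 25.4% lower. Il6 and Il11 did not pass in this fit of all 4 groups, and both passed with only the compared groups in the fit. In CM 6 were higher (the same 5 genes and Il6ra) and 3 were lower (Lif, Il11 and Clcf1), where 29.3% of all tested genes were higher and 29.3% lower. With the log2 limit, 1 member (Lif) was called in control medium and none in CM, against 5.97% and 4.16% of all tested genes. In control medium 10 were called without replicate 4 or 18, and in CM 10 without replicate 6, 9 or 18. The share of all tested genes called is not given here for those fits. The median log2 difference of the members was 0.14 in control medium and 0.56 in CM, against 0.01 and 0 over all tested genes.

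Of the 4 receptor subunits, Il6st, Osmr and Lifr were higher in CD26+ NFs in both media, as were Stat3 and Socs3. Il6st was 3.22-fold higher in control medium (log2 difference 1.69 ± 0.11, adjusted p = 5.58e-09) and 2.56-fold in CM (1.35 ± 0.08, adjusted p = 5.57e-10). Lifr was 3.06-fold higher in control medium (adjusted p = 7.04e-08) and 2.47-fold in CM (adjusted p = 6.11e-09), and Osmr 2.29-fold (adjusted p = 1.79e-06) and 2.27-fold (adjusted p = 2.22e-08). Stat3 was 1.64-fold higher in control medium (log2 difference 0.71 ± 0.06, adjusted p = 7.9e-08) and 1.54-fold in CM (0.62 ± 0.04, adjusted p = 3.22e-09). Socs3 was 3.1-fold higher in control medium (log2 difference 1.63 ± 0.12, adjusted p = 1.65e-08) and 2.14-fold in CM (1.097 ± 0.08, adjusted p = 7.23e-09). CD26+ and CD26- libraries did not overlap for any of the 10 members in control medium, where 64.7% of all tested genes did not overlap either. In CM they did not overlap for 6 members, these 5 and Lif, against 31.7% of all tested genes.

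Of the 4 ligands, Lif and Clcf1 were lower in CD26+ NFs in both media, Il11 was lower in CM, and Il6 did not pass in either medium. Lif was 4.58-fold lower in control medium (log2 difference -2.19 ± 0.19, adjusted p = 1.07e-07) and 2.04-fold lower in CM (-1.03 ± 0.13, adjusted p = 2.47e-06). Clcf1 was 1.46-fold lower in control medium (adjusted p = 0.00349) and 1.45-fold lower in CM (adjusted p = 0.000176). Il11 had a log2 difference of -1.01 ± 0.44 in control medium, which did not pass (adjusted p = 0.0668) although the groups did not overlap. That fit shares its estimate of the spread with the CM libraries. The SD of Il11 was 8.14% and 9.59% of the mean in CD26- and CD26+ controls, and 36.3% and 49.5% in CM. Il11 passed without CM replicate 4, 13 or 18 (adjusted p of 0.0282 to 0.0487) and with only the compared groups (9.59e-07). It was 2.15-fold lower in CM (-1.10 ± 0.32, adjusted p = 0.00601). Il6 had a log2 difference of -0.89 ± 0.37 in control medium (adjusted p = 0.056, and 0.0164 to 0.0469 without replicate 4, 6, 15 or 18). It passed there with DESeq2 (0.0243) and with only the compared groups (2.6e-05). In CM its log2 difference was 0.49 ± 0.23 (adjusted p = 0.0756, 0.0105 with line as a block, and 0.0294 to 0.047 without replicate 6, 9 or 18). Il6ra turned from 1.36-fold lower in CD26+ NFs in control medium (adjusted p = 0.0267) to 1.31-fold higher in CM (adjusted p = 0.00344). Its call in control medium was lost without control replicate 2, 3 or 10 (adjusted p of 0.053 to 0.128) and without the filter on low counts (0.0531).

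Markers of other cell types moved with these comparisons. The epithelial values are given above. Pericyte markers (4 of 4 tested) summed to 158.3 to 171.7 CPM in CD26- controls and 54.38 to 73.24 CPM in CD26+ controls, with 3 of the 4 lower in CD26+ NFs, and to 56.22 to 107.8 CPM and 58.13 to 96 CPM in CM, with 1 higher and 1 lower. Adipocyte markers (2 of 4 tested) summed to at most 1.148 CPM in the CD26- groups, against 3.261 to 7.599 CPM in CD26+ controls and 2.534 to 15.67 CPM in CD26+ CM libraries, and both tested markers were higher in CD26+ NFs in both media. Endothelial markers (4 of 5 tested) summed to 4.351 to 5.273 CPM in CD26- controls and 2.183 to 2.737 CPM in CD26+ controls, with 2 of the 4 lower in CD26+ NFs, and to 3.678 to 8.602 CPM and 2.271 to 4.275 CPM in CM, with 1 lower. The part of the pericyte, adipocyte and endothelial markers in these results was not tested. The mean log2 CPM of the epithelial markers, centred over all libraries, ran from 0.385 to 1.326 in CD26- and from -1.551 to -0.214 in CD26+ libraries. It did not overlap between the cell types, so that a fit with it as a covariate separates the 2 poorly. In that fit 6% of all tested genes were called in control medium and 8.4% in CM, against 50.3% and 58.6% without it. Of the members, 5 of the 8 calls in control medium and 5 of the 9 in CM were kept. Il6st kept a log2 difference of 1.39 in control medium and 1.09 in CM, Lifr 1.24 and 0.98, Stat3 0.62 and 0.55, and Socs3 1.55 and 1.03, all past the test. Osmr stood at 0.87 in control medium (adjusted p = 0.0613) and 0.90 in CM (adjusted p = 0.0177). Lif stood at -1.49 in control medium (adjusted p = 0.00881) and -0.39 in CM (adjusted p = 0.369). Clcf1 stood at -0.31 in control medium (adjusted p = 0.574) and -0.32 in CM (adjusted p = 0.438). Il6ra stood at -0.28 in control medium (adjusted p = 0.638) and, above its value without the covariate, at 0.52 in CM (adjusted p = 0.186). Il11 stood at -0.68 in CM (adjusted p = 0.626). Fewer fibroblasts of a kind and less RNA per cell cannot be told apart in these bulk libraries.

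**Figure D3:**
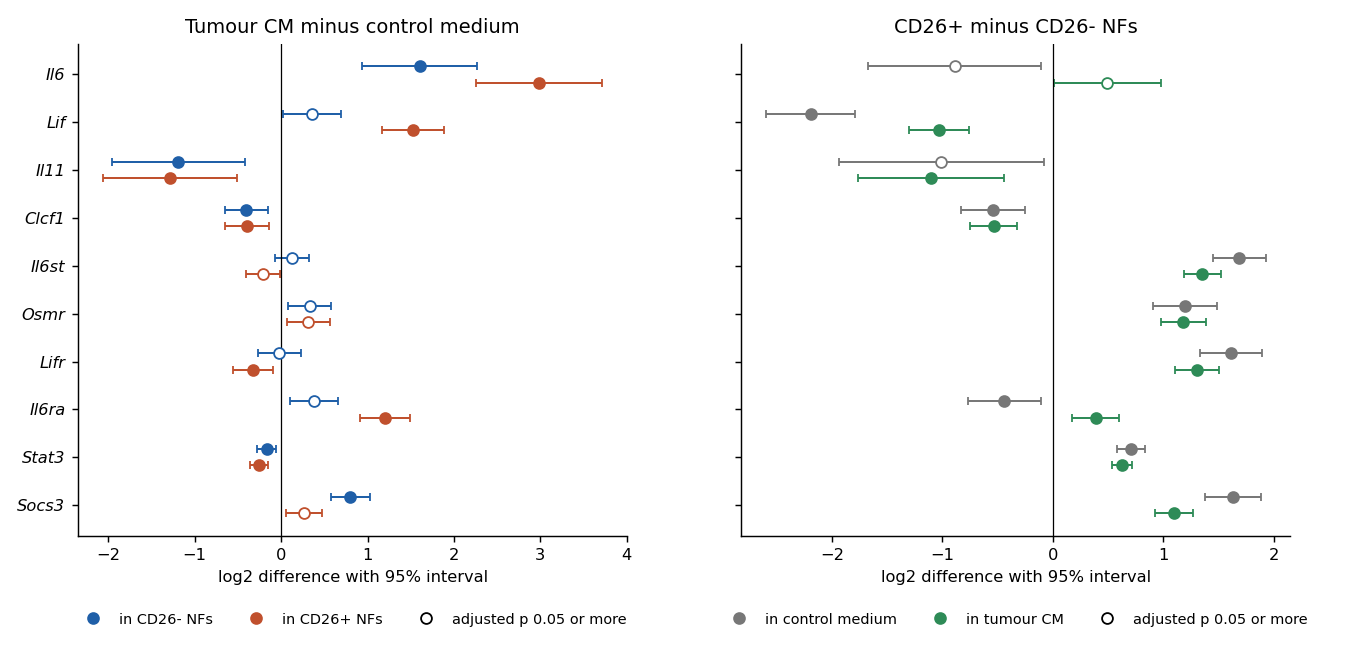
Log2 differences with 95% intervals for the 10 members, on the left between tumor CM and control medium in each cell type, on the right between CD26+ and CD26- NFs in each medium; open points have an adjusted p of 0.05 or more. Il6 has the largest CM effect of the 10 (2.99 in CD26+ NFs), and the intervals of Il6st, Osmr, Lifr, Stat3 and Socs3 on the right all lie above 0.

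The third question was whether CM acted differently in the cell types, tested as the CM effect in CD26+ NFs minus that in CD26- NFs. Lif and Il6ra were higher in this difference and Socs3 was lower, which is 2 members higher and 1 lower, where 4.53% of all tested genes were higher and 3.01% lower. None of the 10 passed the log2 limit, against 0.392% of all tested genes. Lif differed by 1.17 ± 0.23 on the log2 scale (adjusted p = 0.00637) and Il6ra by 0.83 ± 0.19 (adjusted p = 0.0147). Socs3 differed by -0.53 ± 0.14 (adjusted p = 0.0317), with the lower level before CM and the larger rise both in CD26- NFs. Il6 differed by 1.39 ± 0.44 and did not pass (adjusted p = 0.061), but did with line as a block (1.43, adjusted p = 0.0109) and without replicate 4, 6 or 18 (adjusted p of 0.0234 to 0.0446). It also passed with DESeq2 (adjusted p = 0.0145) and without the filter on low counts (0.0494). Il6st differed by -0.34 ± 0.13 (adjusted p = 0.126, and 0.0423 with line as a block). With the block 5 members were called, where 17.6% of all tested genes were, against 7.53% without it. The count was 4 without replicate 18 and 1 without control replicate 3 or 10. In the difference 2 of 4 pericyte markers were higher, and their part in it was not tested.

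The differences in CM effect of Il11 (-0.10 ± 0.54, 95% interval from -1.23 to 1.04), Clcf1 (0.01 ± 0.17, from -0.36 to 0.37) and Osmr (-0.02 ± 0.17, from -0.37 to 0.34) were close to 0 with wide intervals. That of Stat3 was narrower (-0.09 ± 0.07, from -0.24 to 0.07). Lifr lay between these and the called genes (-0.31 ± 0.16, adjusted p = 0.258). The call of Il6ra was lost without CD26- control replicate 3 (adjusted p = 0.0548) or CD26+ control replicate 10 (0.0519). That of Socs3 was lost without control replicate 2, 3, 10, 11 or 12 (adjusted p of 0.0519 to 0.106).

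The fourth question was whether the members differed between the 6 tumor lines. In a model of cell type and line over the 12 CM libraries, 2 members passed, Il11 and Socs3, where 6.28% of all tested genes did. Il11 had an F of 41.3 and an adjusted p of 0.00194, which ranked it 31 of 14273. Its levels were lowest with line 13-MCB-17 in both cell types (185.8 CPM in CD26- and 76.24 CPM in CD26+ NFs) and next lowest with line 10-SJK-221 (396.6 and 140.6 CPM). They were highest with line 13-MCB-138 in both (671.9 and 384.9 CPM). Relative to the mean of its controls, Il11 was 5.98-fold and 7.25-fold lower with line 13-MCB-17 and 1.65-fold and 1.44-fold lower with line 13-MCB-138. Averaged over the cell types, the lines spanned 2.09 on the log2 scale, and the adjusted p stayed between 0.00029 and 0.0135 when each of the 12 libraries was left out.

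Socs3 had an F of 8.72 and an adjusted p of 0.045, and lost the call in each of the 12 fits with 1 library left out (adjusted p of 0.0603 to 0.111). It also lost it with DESeq2 (0.0745) and with upper-quartile scaling (0.0578). Its order across lines ran against that of Il11 at the ends. It was highest with line 13-MCB-17 (41.42 CPM in CD26- and 81.62 CPM in CD26+ NFs) and lowest with line 13-MCB-138 (27.91 and 64.35 CPM). Osmr was also highest with line 13-MCB-17 in both cell types (206.2 and 486.4 CPM), with an adjusted p of 0.0775 for the lines. It was 0.0144 without replicate 18 and 0.00578 without replicate 9. With DESeq2 it was 0.0111, with upper-quartile scaling 0.0446, and without the filter on low counts 0.000341.

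Il6 was highest with line 18-MCB-12 in both cell types (113.8 and 164.2 CPM). In CD26- NFs it was lowest with line 13-MCB-17, at 33.35 CPM or 1.29-fold over the control mean. In CD26+ NFs it was lowest with line 13-MCB-138, at 68.54 CPM or 4.91-fold over the control mean. The lines spanned 1.30 on the log2 scale and did not pass (adjusted p = 0.285), but did without replicate 18 (adjusted p = 0.0161) and without replicate 9 (0.01), the libraries with CM of line 13-MCB-138. For Lif, Clcf1, Il6st, Lifr, Il6ra and Stat3 the adjusted p lay between 0.229 and 0.523, and Lif alone of these passed when a library was left out (0.00583 without replicate 9).

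In CD26+ NFs replicate 18 was the CM library nearest to the control mean for 8 of the 10 members (Il6, Lif, Il11, Clcf1, Osmr, Lifr, Il6ra and Socs3). The culture of CD26- NFs with CM of the same line, replicate 9, was nearest for 2 (Il11 and Socs3). In CD26- NFs that line gave Il6 at 103.6 CPM, the second highest of the 6. With 1 library per line and cell type, a line and the culture it was given to cannot be told apart within a cell type.

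**Figure D4:**
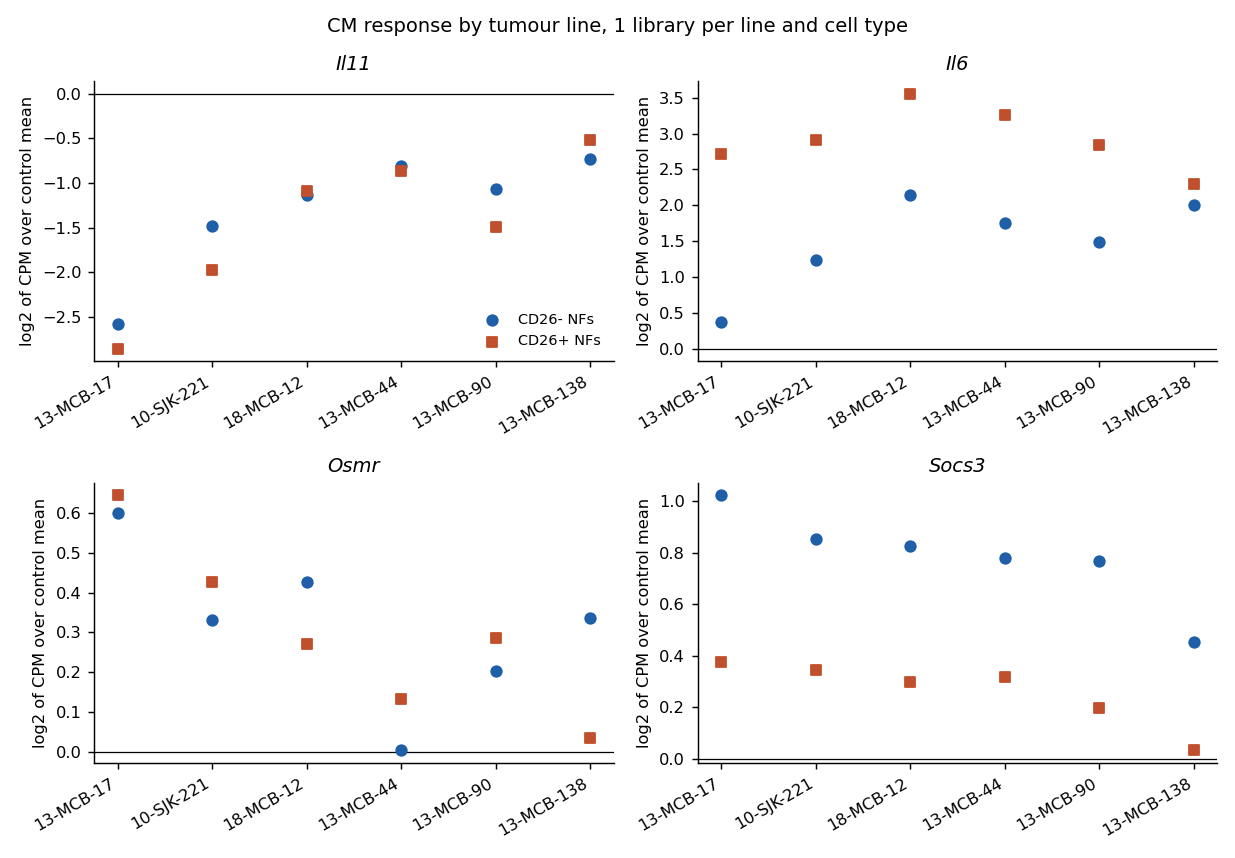
Log2 of each CM library's CPM over the mean of the 3 controls of its cell type, for Il11, Il6, Osmr and Socs3, with the 6 tumor lines on the horizontal axis (1 library per point, circles for CD26- and squares for CD26+ NFs; the vertical axes differ). Il11 lies below 0 with all lines and lowest with 13-MCB-17 in both cell types, and Il6 lies above 0 with all lines.

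Of a list of 60 other genes of the pathway, 53 passed the filter. Tumor CM raised 10 and lowered 1 in CD26- NFs (20.8% called), and raised 18 and lowered 6 in CD26+ NFs (45.3% called). The shares of all tested genes are those given above. The median log2 difference was 0.06 in CD26- and 0.12 in CD26+ NFs. Comparing CD26+ with CD26- NFs, 33 were called in control medium (20 up, 13 down) and 39 in CM (27 up, 12 down), and with the epithelial covariate, which does not overlap between the cell types, the counts were 7 and 12 beside 6% and 8.4% of all tested genes. The difference in CM effect was called for 7, of which 4 were higher and 3 lower. With line as a block 21 were called with CM in CD26- NFs and 16 for the difference, while the share of all tested genes called went from 15.2% to 26.5% and from 7.53% to 17.6%. Without control replicate 3 the CD26- count was 7. The count for the difference was 2 without any 1 of the 6 control libraries, 4 without replicate 5, 6, 8, 9 or 17, and 13 without replicate 18.

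Of the other ligands of the family, Ctf1, which encodes cardiotrophin 1, passed the filter at low levels, with group means of 0.88 to 1.94 CPM, and was lower in CD26+ than CD26- NFs in CM (log2 difference -0.85 ± 0.35, adjusted p = 0.0441). It is named here after its values were seen. Osm, the ligand of the receptor that Osmr encodes, had a highest group mean of 0.0728 CPM, and Ctf2, Cntf, Il27, Ebi3 and Il31 were likewise not tested for low counts. Cntfr, a receptor of the family, was lower in CD26+ NFs in control medium (log2 difference -2.03 ± 0.23, adjusted p = 1.45e-06) and in CM (-1.93 ± 0.17, adjusted p = 3.58e-08). Il11ra1, the receptor for interleukin 11 and named here after its values were seen, rose with CM from 10.4 to 16.1 CPM in CD26- NFs (adjusted p = 0.00298) and from 21.6 to 28.8 CPM in CD26+ NFs (adjusted p = 0.0111), while its ligand fell. Of the proteases that shed the interleukin 6 receptor, Adam10 fell with CM in CD26- NFs (-0.39 ± 0.07, adjusted p = 0.00217) and in CD26+ NFs (-0.22 ± 0.07, adjusted p = 0.0333). Adam17 rose with CM in CD26+ NFs (0.34 ± 0.05, adjusted p = 0.000171) and did not pass in CD26- NFs (0.12 ± 0.05, adjusted p = 0.128). It was higher in CD26+ than CD26- NFs in control medium (0.30 ± 0.06, adjusted p = 0.00046) and in CM (0.52 ± 0.04, adjusted p = 2.37e-08).

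Zc3h12a encodes regnase-1, an RNase that degrades Il6 mRNA. It rose with CM in both cell types, from 19.4 ± 3.43 to 47.7 ± 2.63 CPM in CD26- NFs (log2 difference 1.31 ± 0.13, adjusted p = 3.16e-05) and from 22.5 ± 1.57 to 61.5 ± 9.49 CPM in CD26+ NFs (1.45 ± 0.13, adjusted p = 6.14e-07). Stat5a, a related transcription factor, rose in CD26- NFs (1.09 ± 0.14, adjusted p = 0.000237) and in CD26+ NFs (1.32 ± 0.13, adjusted p = 2.75e-06). It was higher in CD26+ than in CD26- NFs in control medium (1.03 ± 0.16, adjusted p = 4.01e-05) and in CM (1.26 ± 0.11, adjusted p = 2.41e-08). It overlaps Stat3 on the other strand and had 8379 counts in all libraries together. Among the brakes, Socs2 fell with CM in CD26+ NFs (-0.63 ± 0.09, adjusted p = 9.02e-05), with a difference in CM effect of -0.45 ± 0.13 (adjusted p = 0.0494), and the phosphatase gene Ptpn11 had one of 0.24 ± 0.06 (adjusted p = 0.0247). Socs6 was lower in CD26+ NFs in control medium (-0.64 ± 0.08, adjusted p = 2.01e-06) and in CM (-0.34 ± 0.05, adjusted p = 3.04e-05). Ptpn6 was also lower in CD26+ NFs in both media, with log2 differences of -2.28 ± 0.28 in control medium (adjusted p = 2.83e-06) and -2.40 ± 0.21 in CM (adjusted p = 4.69e-08).

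Of 17 genes known as Stat3-inducible, 6 rose with CM in CD26- NFs and none fell. In CD26+ NFs 6 rose and 1 fell. These are 35.3% and 41.2% of the 17 called, against 7.88% up and 7.3% down over all tested genes in the CD26- comparison and 15.2% up and 13.4% down in the CD26+ one. Cebpd, which encodes a C/EBP transcription factor, resembled Socs3. It was higher in CD26+ than CD26- NFs in control medium (2.61 ± 0.23, adjusted p = 1.22e-07) and in CM (1.28 ± 0.14, adjusted p = 7.2e-07), rose with CM in CD26- NFs (1.51 ± 0.22, adjusted p = 0.000364), and had 0.17 ± 0.17 in CD26+ NFs (adjusted p = 0.488), with a difference of -1.34 ± 0.27 (adjusted p = 0.0085). Vegfa, the angiogenic factor, rose in CD26+ NFs (1.30 ± 0.14, adjusted p = 4.65e-06) with a difference in CM effect of 0.96 ± 0.19 (adjusted p = 0.00657), and Timp1, a protease inhibitor, had a difference of 0.56 ± 0.15 (adjusted p = 0.033). Il4ra fell with CM in CD26+ NFs (-0.36 ± 0.10, adjusted p = 0.00938) with a difference of -0.49 ± 0.14 (adjusted p = 0.0426). It was higher in CD26+ NFs in control medium (1.496 ± 0.12, adjusted p = 3.38e-08) and in CM (1.01 ± 0.08, adjusted p = 1.9e-08). Hif1a was higher in CD26+ NFs in control medium (0.81 ± 0.09, adjusted p = 1.33e-06) and in CM (0.54 ± 0.06, adjusted p = 1.34e-06). Bcl2l1, which encodes the survival protein BCL-XL, was lower in CD26+ NFs in control medium (-1.28 ± 0.13, adjusted p = 6.13e-07) and in CM (-0.83 ± 0.09, adjusted p = 6.14e-07).

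The acute phase gene Saa3 and Lcn2, which encodes lipocalin 2, had the largest CM effects on this list and are named here after their values were seen. Saa3 had 1, 6 and 4 counts in the CD26- controls and 8, 23 and 5 counts in the CD26+ controls. In CM it reached 63.5, 24.8, 134, 74.3, 30.5 and 11.4 CPM in CD26- replicates 4 to 9 (adjusted p = 0.00555). In CD26+ NFs it reached 1070, 1100, 1720, 1710 and 1170 CPM in replicates 13 to 17 and 24.5 CPM in replicate 18 (adjusted p = 4.85e-05). The lowest value in each cell type was that with CM of line 13-MCB-138. The difference in CM effect did not pass (adjusted p = 0.73).

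Lcn2 had 16.6, 6.83 and 11.1 CPM in CD26- controls and 66.2, 126, 58.4, 181, 155 and 3.71 CPM in replicates 4 to 9 (adjusted p = 0.014). In CD26+ NFs it had 5.66, 2.74 and 2.52 CPM in controls and 43.8, 31, 44.4, 44.1, 51.2 and 7.14 CPM in replicates 13 to 18 (adjusted p = 0.00981). Again the lowest CM library of each cell type had CM of line 13-MCB-138, and that of CD26- NFs lay below all 3 controls.

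**Figure D5:**
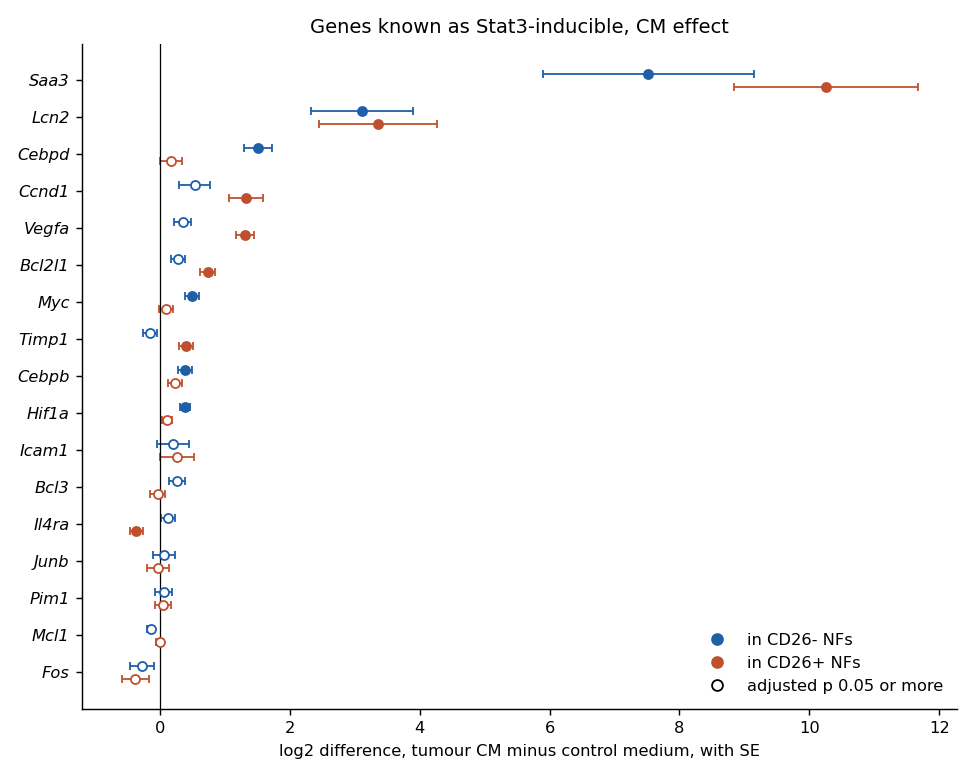
Log2 difference between tumor CM and control medium, with SE, for 17 genes known as Stat3-inducible in CD26- NFs (blue) and CD26+ NFs (orange); open points have an adjusted p of 0.05 or more. Saa3 and Lcn2 lie far above the other genes in both cell types, and they are the only genes of the 17 with filled points in both.

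The genes whose pattern was most like that of each member were taken by Pearson's r of log2 CPM over the 18 libraries, among 11122 other genes. These values describe 4 groups of libraries and carry no p. Il6 was most like Slc15a3 (r = 0.975), Cemip (0.966) and Slc5a6 (0.963), Lif like Cgnl1 (0.991), Rhbdf2 (0.989) and Cryab (0.981), and Il11 like Pde8b (0.968), Tmem190 (0.967) and Tsc22d1 (0.945). Clcf1 had lower values, with Plekhg3 and Wdr6 (0.944 each) and Myo1e (0.942). Osmr was most like Jak1 (0.993), which encodes the kinase that gp130 receptors use, then Glipr2 (0.992) and Ifi204 (0.987). Lifr was most like Epdr1 (0.993), Bicc1 (0.984) and Il6st (0.984), itself a member. Il6st was most like Sned1 (0.994), Lgmn (0.993) and Plce1 (0.989). Stat3 was most like Dclk1 (0.992), Nfil3 (0.983) and Gpr180 (0.983), and Il6ra like Ifngr2 (0.955), Slco3a1 (0.952) and Egln3 (0.95). Socs3 was most like Apln (0.981), Cebpd (0.974) and Ppp1r9b (0.972).

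Among the members themselves, Il6st, Osmr, Lifr, Stat3 and Socs3 had r between 0.756 and 0.984 with each other. Il6 had its highest r with Il6ra (0.874) and Il11 with Clcf1 (0.866). Lif had its lowest with Stat3 (-0.902), and Socs3 its lowest with Clcf1 (-0.893).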

How the data were processed

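Polyadenylated RNA of 18 cultures was sequenced single-end from stranded libraries. The authors deposited raw read counts per gene without normalization. Per the submitters' processing notes HISAT2 2.1.0, HTSeq and GRCm38 were used, and the strand setting and annotation release are not given in the sources used here. Groups and lines were taken from the labels, which give no batch, and no library was left out. A row with no gene symbol or identifier, holding 0 counts, was dropped. No copied library was found (replicates differed by a chi-square of at least 3.221 per degree of freedom).

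Genes were kept with filterByExpr by group. Counts were scaled by TMM. One model of the 4 groups was fitted with edgeR 4.0.16 (R 4.3.3) and its quasi-likelihood test, with Benjamini-Hochberg adjustment over all 14273 tested genes. CPM is relative to the TMM-scaled library size, log2 CPM has a prior count of 2, and TPM uses the exon length of GENCODE M21. SE is the log2 difference divided by the root of F. DESeq2 1.42.0, other scalings, no filter, only the compared groups, an epithelial covariate, line as a block and leaving out each library were alternatives. The edgeR step was tested on simulated data. Same-line cultures of the cell types deviated together (r of 0.247 to 0.406 in all 6 pairs). The best r of a CD26- culture with a CD26+ culture of another line was 0.041 to 0.242, in each case lower. Line therefore pairs the cultures, which the main model does not use and the block does. Totals of 9725723 to 14585349 counts set the precision, and Il6ra had 63 counts in its lowest library.

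The members and lists were chosen with earlier results of these data known. All 10 members are named in every contrast. Each contrast names the 3 list genes higher and the 3 lower with the smallest p among those called with a group mean of at least 5 CPM, and likeness names the 3 genes of highest r per member. A listed gene that this rule names and part of the genotype of the tumor model are not reported here.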

Additional observations from a re-analysis of the deposited data

Results flagged for a closer look

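Clcf1 in CD26+ NFs with CM was 57.83 CPM in replicate 18, against 40.69 to 45.54 CPM in the other 5 libraries, a gap large for the range of the group. Chance marks about 1 in 20 groups this way. The CM effect differed between the cell types, as CD26+ minus CD26- on the log2 scale, by 1.165 for Lif, by 0.825 for Il6ra and by -0.534 for Socs3, each by edgeR's test of the difference itself. For Lif and Il6ra the CM libraries lay above the control mean in 6 of 6 cases in each cell type, and for Socs3 likewise.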

How the results depend on the processing

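Calls of members depended most on the log2 limit of 2. With it 0 remained for CM in CD26- NFs and 1 in CD26+ NFs, 1 between cell types in control medium and 0 in CM, and 0 when CM effects were compared. The epithelial covariate, which does not overlap between the cell types, left 5 in control medium and 5 in CM. Line as a replicate block gave 5 for the difference, and changed the calls given beside Osmr, Il6ra, Il6st, Socs3 and Il6 and no other. DESeq2 gave 5 for CM in CD26- NFs and 9 in CD26+ NFs, and 9 between cell types in each medium. It gave 4 for the difference and 2 for the lines, Il11 and Osmr. Without the filter on low counts the line test called 6, adding Il6, Lif, Clcf1 and Osmr. The 6.28% of all tested genes given above belongs to the filtered fit. When each library was left out, the members called ranged from 2 to 7 for CM in CD26- NFs, from 5 to 9 in CD26+ NFs, from 7 to 10 between cell types in control medium and 9 to 10 in CM, from 1 to 4 for the difference, and from 1 to 4 for the lines. In CD26- NFs the count was 2 without control replicate 1, 2 or 3 or CM replicate 4, 5 or 8, and 3 without CM replicate 6. The difference had 1 call without CD26- control replicate 3 or CD26+ control replicate 10. The line test had 4 without replicate 9. The line test had 1 without any other 1 of the 12 libraries except replicate 18 (3). The cause was not tested. For DESeq2, the fit without the filter and the fits with a library left out, shares of all tested genes are not given here.

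Signs turned only for values near 0 that were not called: Lifr with CM in CD26- NFs (-0.092 to 0.063 with 1 library left out), and the differences in CM effect of Il11 (-0.319 to 0.073), Osmr (-0.103 to 0.046) and Clcf1 (-0.098 to 0.102, and -0.028 with upper-quartile scaling). Of 1360 single values, 1223 kept their direction and side of the threshold, 59 lost the threshold, 56 gained it and 22 turned sign. The calls of Il6, Lif and Il6ra with CM in CD26+ NFs, of Il6 and Socs3 with CM in CD26- NFs and of Il6st, Lifr, Stat3 and Socs3 between cell types held under every alternative other than the log2 limit. With line as a block 21 other pathway genes were called with CM in CD26- NFs and 16 for the difference, against 11 and 7, and with the epithelial covariate 7 were called in control medium and 12 in CM, against 33 and 39. Other scalings moved the median of all genes by less than 0.1 on the log2 scale.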
